A study of Mus musculus with 4 samples.

Results

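Ctsk and Ctss encode cathepsins K and S, cysteine proteases of the lysosome. They were taken as every probe whose single platform gene symbol is Ctsk or Ctss, which gave 2 probes, 1 for each gene, among 20205 probes in all, or 2 of 9802 named genes. Both genes were chosen by their high log2 ratios of challenged lung over control, so those ratios are a description here and carry no test. Mouse lung RNA was compared on 4 dual-colour arrays, all from BALB/cJ mice, an inbred strain prone to allergic responses. Each array held lung of mice that had been sensitized to ovalbumin, the egg-white protein that serves as allergen in many such models, and then challenged with it. In the UCP air group the mice breathed air containing UCP, which the labels do not spell out (2 arrays). In the particle-free air group they breathed air without particles (2 arrays). The second channel was a pool of lung RNA from 6 control animals, non-sensitized and unchallenged, in the same kind of air. Array 1 of each air carried the challenged lung in Cy5, and array 2 carried it in Cy3.

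Sensitization and challenge were always given together and cannot be told apart. Age and sex of the mice, and whether the 2 arrays of an air hold different animals, are not stated in the sources used here, so a p-value covers spread between arrays alone, and that spread could be purely technical. The arrays held 19349 to 19832 values each, with medians from -0.07 to 0.02. They were only weakly related to each other, with Pearson correlations over probes from 0.07 to 0.18 between arrays. A positive value most likely means more RNA in challenged lung. That the 4 arrays run in a common direction follows from the values. The sign as a whole is not stated and was taken from the common Cy5 over Cy3 usage and from genes well known to be raised in allergic airways, such as Chil3. The table holds ratios and no brightness, so neither the level of a gene nor the labelled tissue could be checked against marker levels. Being whole lung, the samples cannot tell fewer or more cells of a type apart from less or more RNA per cell.

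Cysteine cathepsins belong to the papain family. They are made as inactive precursors, sorted to lysosomes and activated there at acid pH, and cystatins and related proteins inhibit them. Cathepsin K degrades collagen and elastin and is best known from osteoclasts, the cells that resorb bone, while macrophages and fibroblasts of inflamed tissue can also make it. Cathepsin S remains active at neutral pH and, in antigen-presenting cells, trims the invariant chain from class II molecules before they are loaded with peptide.

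The genes are neighbours on mouse chromosome 3, on the same strand, with 1 table entry, a non-coding RNA gene, between their starts. Their promoters are shown because both genes lay high on all 4 arrays. Each sequence holds 250 bases before and 50 after the start of the gene, from RefSeq on GRCm38.p6, + strand, at chr3:95498960-95499259 for Ctsk and chr3:95526536-95526835 for Ctss. Capitals mark matches to the motifs searched.
Ctsk: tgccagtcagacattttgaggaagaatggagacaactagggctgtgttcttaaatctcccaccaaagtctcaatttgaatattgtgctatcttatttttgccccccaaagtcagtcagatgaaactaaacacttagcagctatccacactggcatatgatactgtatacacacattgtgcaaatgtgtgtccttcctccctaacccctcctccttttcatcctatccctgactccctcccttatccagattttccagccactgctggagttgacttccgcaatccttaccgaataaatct
Ctss: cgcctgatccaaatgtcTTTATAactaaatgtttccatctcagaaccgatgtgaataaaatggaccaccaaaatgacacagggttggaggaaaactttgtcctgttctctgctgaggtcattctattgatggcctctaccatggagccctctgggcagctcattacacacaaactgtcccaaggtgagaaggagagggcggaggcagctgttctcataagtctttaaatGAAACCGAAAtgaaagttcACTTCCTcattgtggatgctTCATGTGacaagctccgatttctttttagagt

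A total of 7 motifs were searched on both strands: CACGTG (the E-box of the MITF and TFE family), TCATGTG (the core of the M-box), TGANTCA (AP-1), AGGAAGT (PU.1), TTC and GAA with 4 bases between (STAT6), GAAA and GAAA with 2 bases between (interferon regulatory factors) and TATAAA (the TATA box). The Ctsk window held 0 matches and the Ctss window held 4, which do not overlap each other. In Ctss the interferon regulatory factor motif lay at -21 to -12 from the start, and 3.44% of all 32851 promoter entries of the same length hold it. The PU.1 motif lay at -2 to 5 on the opposite strand (9.35% of entries), and the M-box core at 19 to 25 (3.77%). A TATAAA match on the opposite strand at -233 to -228 (13.6%) was far from the start. The shares for the motifs without a match were 7.15% for the E-box, 7.81% for AP-1 and 6.95% for STAT6. These matches describe letters in the windows only.

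Ctsk had log2 ratios of 2.46 and 2.21 on the arrays of UCP air, against 3.33 and 2.45 on those of particle-free air. All 4 arrays were high, the highest being array 1 of particle-free air. The average was 2.61 ± 0.49 (SD, n = 4), a 6.12-fold higher level in challenged lung and 4.61-fold on the lowest array. Ctsk took place 37 in the order of averaged log2 ratios among the 18160 probes with a value on every array. On single arrays its place ran from 56 to 207.

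Ctss had log2 ratios of 2.25 and 2.65 on the arrays of UCP air, against 1.78 and 2.38 on those of particle-free air. Here array 1 of particle-free air was the lowest, the array on which Ctsk was highest. The average was 2.27 ± 0.36 (SD, n = 4), a 4.81-fold higher level, with 3.44-fold on the lowest array and 6.29-fold on the highest. Ctss took place 48 by the average and places from 66 to 354 on single arrays. Both probes were at least 1.5-fold higher on all 4 arrays, as were 1.13% of all probes. Since the genes were chosen for this contrast, nothing follows from that count.

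The log2 ratio of Ctsk exceeded that of Ctss by 0.21 on array 1 of UCP air and by 1.54 on array 1 of particle-free air. On the arrays labelled the other way round the gap was -0.45 in UCP air and 0.07 in particle-free air. The mean gap of 0.35 ± 0.85 (SD, n = 4) was smaller than its spread, so the order of the 2 genes is not settled. The deviation of array 1 from the mean of its air was 0.13 in UCP air and 0.44 in particle-free air for Ctsk. For Ctss it was -0.20 in UCP air and -0.30 in particle-free air, opposite in sign to Ctsk in both airs. Array number, dye and any difference between animals cannot be told apart in this value.

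**Figure D1:**
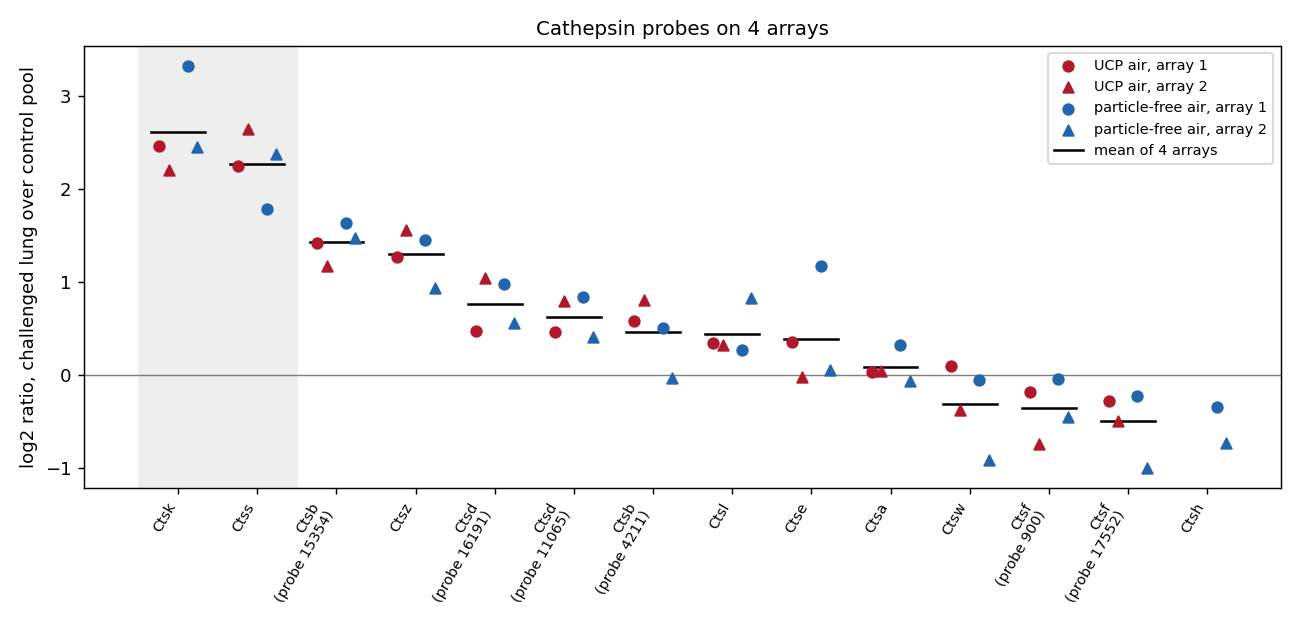
Log2 ratio of challenged lung over control pool (vertical axis) for each cathepsin probe (horizontal axis), with 1 point per array, red for UCP air and blue for particle-free air, circles for array 1 and triangles for array 2, and a bar at the mean of 4 arrays. Ctsk and Ctss, shaded and chosen for high ratios, lie at 1.78 or above on every array, and the other probes lie at 1.64 or below.

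The difference between airs was not used to choose the genes and was tested, and neither gene passed. Each ratio is against controls in the same kind of air, so this is a difference of challenge effects. An effect of UCP shared by challenged and control lung would cancel in it, and a shift in the control pool of either air would enter it. Ctsk averaged 2.34 ± 0.18 in UCP air and 2.89 ± 0.62 in particle-free air (SD, n = 2 each), and the arrays of the airs overlapped. The difference was -0.55, with a 95% confidence interval from -1.68 to 0.58 (limma adjusted p = 0.984). Ctss averaged 2.45 ± 0.28 in UCP air and 2.08 ± 0.42 in particle-free air (SD, n = 2 each), again with overlapping arrays. Its difference was 0.37, with a 95% confidence interval from -0.64 to 1.38 (limma adjusted p = 0.984). The intervals leave room for a change of either sign, so the challenge effect is not shown to be alike in both airs. Over all probes limma called 0 differences between airs (0% of 18160), with 722 (3.98%) at an unadjusted p under 0.05.

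Both differences leaned on array 1 of particle-free air. Without it the Ctsk difference was -0.12 and the Ctss difference 0.07, and without array 2 of that air they were -0.99 and 0.67. Without array 2 of UCP air the Ctss difference was 0.17, and without array 1 of UCP air it was 0.57. With the arrays scaled to the same spread the Ctsk difference was -0.11 and the Ctss difference 0.74. None of these passed the threshold. Transcripts of other organs had unequal medians in the airs on the same arrays. The median of 7 liver-made genes was 0.48 in UCP air and 3.21 in particle-free air, and that of 6 heart muscle genes was -2.75 in UCP air and 0.01 in particle-free air. Limma on gene averages called 0 of these 13 genes between airs, with 6 of the liver-made and 5 of the heart muscle genes at an unadjusted p under 0.05. Their part in the differences of Ctsk and Ctss was not tested.

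**Figure D2:**
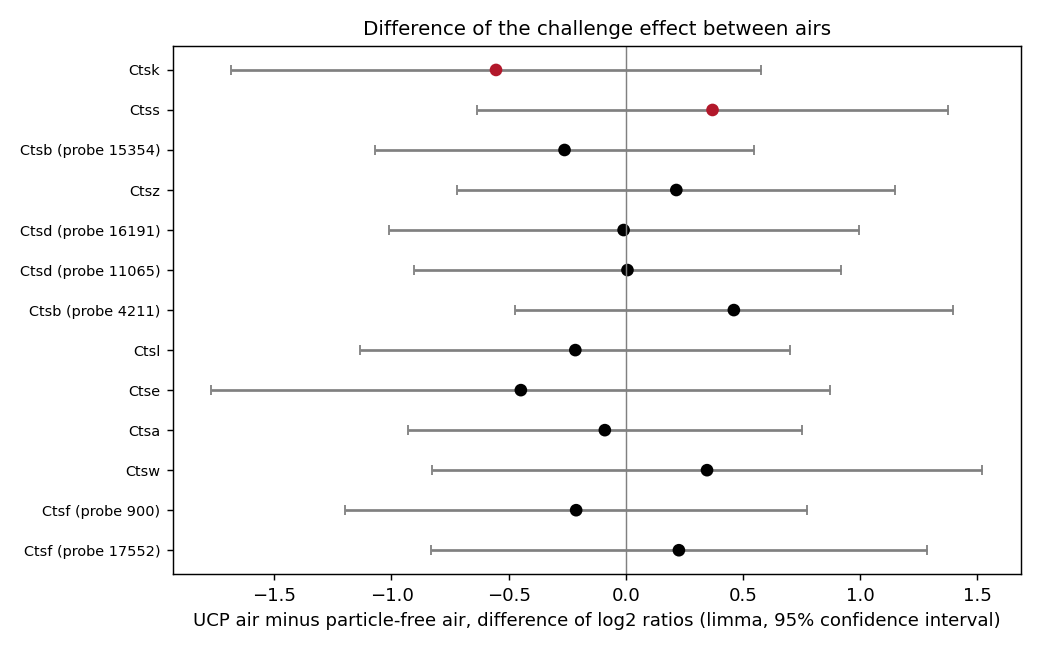
Difference of log2 ratios, UCP air minus particle-free air (horizontal axis), for each cathepsin probe with a value on all 4 arrays (vertical axis), with the limma 95% confidence interval as a bar. Ctsk at -0.55 and Ctss at 0.37, in red, lean opposite ways, and every interval includes 0.

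The other genes named Cts plus 1 letter comprised 9 genes with 12 probes, of which 11 probes for 8 genes had a value on all 4 arrays. Their averaged challenge effect did not pass the test for any probe: limma called 0 of 11, with adjusted p from 0.103 to 0.832. At an unadjusted p under 0.05 were 5 of 11, all of them on the high side. These were both probes of Ctsb, both of Ctsd and the probe of Ctsz, and probes of the same gene are not independent. Across all probes limma called 1 higher (0.00551%) and 0 lower (0%), and 6.45% on the high side and 7.59% on the low side had an unadjusted p under 0.05. At least 1.5-fold higher on all 4 arrays were 2 of the 11 (1.13% of all probes), and 0 were 1.5-fold lower (1.2% of all probes). The median averaged log2 ratio of the 11 was 0.44, against -0.03 over all probes.

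Ctsb and Ctsz were nearest to Ctsk and Ctss in size. Ctsz, a carboxypeptidase of macrophages and dendritic cells, had log2 ratios of 1.27 and 1.56 in UCP air, against 1.46 and 0.94 in particle-free air (average 1.31 ± 0.27, SD, n = 4, limma adjusted p = 0.128). Ctsb, the most widely expressed of these proteases, has 2 probes that disagreed. Probe 15354 had 1.42 and 1.18 in UCP air, against 1.64 and 1.48 in particle-free air, and averaged 1.43 ± 0.19 (SD, n = 4, limma adjusted p = 0.103). Probe 4211 had 0.59 and 0.81 in UCP air, against 0.51 and -0.03 in particle-free air, and averaged 0.47 ± 0.36 (SD, n = 4, limma adjusted p = 0.354).

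Ctsl, a widely expressed endopeptidase, averaged 0.44 ± 0.26 and was above 0 on all 4 arrays. Ctsw and Ctsf lay on the low side. Ctsw, a protease of cytotoxic lymphocytes, averaged -0.31 ± 0.45, while the 2 probes of Ctsf averaged -0.35 ± 0.31 and -0.50 ± 0.35 and were below 0 on all 4 arrays (SD, n = 4 each). Ctsh, an aminopeptidase that alveolar type 2 cells use to process surfactant proteins, had values on the particle-free arrays only, -0.34 and -0.73, and was not tested.

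Cathepsins of other catalytic classes were measured too. The probes of Ctsd, the main aspartic protease of lysosomes, averaged 0.63 ± 0.22 and 0.76 ± 0.29, all arrays above 0. Ctse, an aspartic protease of immune and gastric cells, averaged 0.39 ± 0.55, with 1.18 on one array, the first of particle-free air, and no more than 0.35 elsewhere. Ctsa, a serine carboxypeptidase that also protects lysosomal glycosidases, averaged 0.09 ± 0.17 (SD, n = 4 each). Between airs limma called 0 of the 11 probes, with 0 at an unadjusted p under 0.05. The arrays of the airs did not overlap for 2 of the 11, which were the 2 probes of Ctsb, in opposite directions. UCP air was lower for probe 15354 and higher for probe 4211. Of all probes, 17.7% had UCP air higher and 14.6% had it lower without overlap.

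The genes around the pair on chromosome 3 were taken as the 5 nearest on each side that had a value on all 4 arrays. Before Ctsk these were Bnipl, Prune1, Mindy1, Anxa9 and Arnt, and after Ctss they were Mcl1, Adamtsl4, Ecm1, Tars2 and Prpf3. Arnt, the partner subunit of hypoxia-inducible and aryl hydrocarbon receptor factors, directly precedes Ctsk. It had log2 ratios of -0.67 and -0.94 in UCP air, against 0.17 and -0.22 in particle-free air. Mcl1, an inhibitor of cell death, had -0.04 and 0.73 in UCP air, against -0.14 and 0.08 in particle-free air. All 10 neighbours averaged between -0.47 for Anxa9 and 0.16 for Mcl1, with a median of -0.15. Of them 0 were at least 1.5-fold higher on all 4 arrays, where 1.16% of all named genes were. Lower as far were 0, against 1.02% of all named genes. Limma on gene averages called 0, with a smallest adjusted p of 0.286. At an unadjusted p under 0.05 on the low side were 2, Anxa9 and Arnt, against 7.56% of all named genes. The table lists further entries that are not among the measured genes. They lie between Anxa9 and Arnt (7), Ctss and Mcl1 (6), Mcl1 and Adamtsl4 (1), Ecm1 and Tars2 (1) and Tars2 and Prpf3 (4).

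**Figure D3:**
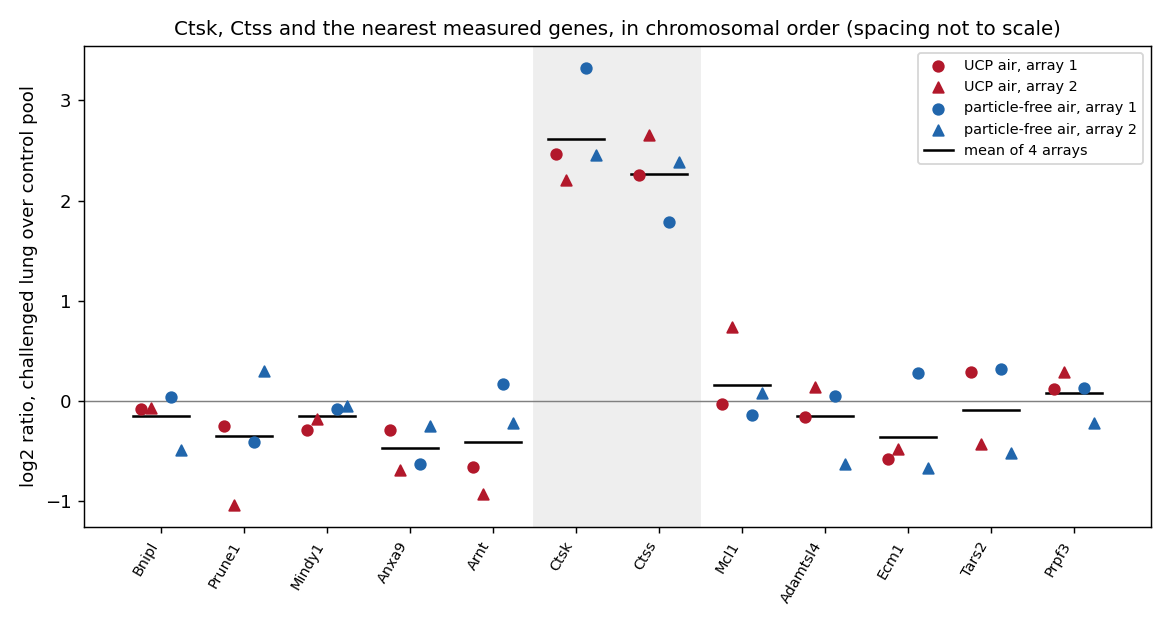
Log2 ratio of challenged lung over control pool (vertical axis) for Ctsk, Ctss (shaded) and the 5 nearest measured genes on each side in chromosomal order (horizontal axis, spacing not to scale), with points per array as coloured in the legend and a bar at the mean. The neighbours average between -0.47 and 0.16, below Ctsk at 2.61 and Ctss at 2.27, which were chosen for high ratios.

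Likeness to each gene was measured as the root mean square difference of the 4 log2 ratios, over 9153 named genes with their probes averaged. It reflects the size of the ratio more than its pattern, and the values describe 4 arrays only. Nearest to Ctss was Ccl6, a chemokine of myeloid cells, at a distance of 0.24. Its log2 ratios were 2.22 and 2.31 in UCP air, against 2.10 and 2.48 in particle-free air. Next were S100a4, a calcium-binding protein of motile cells, at 0.44, the mannose receptor Mrc1 at 0.59, the digestive carboxypeptidase Cpa1 at 0.69 and Lgals3, the lectin galectin-3, also at 0.69. Ctsk had no gene as near. Ccl6 was again first, at 0.63, followed by Ctss at 0.81, the chemokine Ccl9 at 0.82, the chitinase-like Chil1 at 0.82 and Lgals3 at 0.84.

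Gene groups tied to the biology of these proteases were compared by the averages of their measured genes, beside all 9153 named genes. Those had a median averaged log2 ratio of -0.01, and on all 4 arrays 1.16% of them were raised by 1.5-fold or more and 1.02% lowered as far. On gene averages limma called 6 genes higher (0.0656%) and 3 lower (0.0328%), and 1 of these 9, Nppa among heart muscle genes, belongs to a list used here. Nppa had a low ratio to its control pool in UCP air only, with -5.72 and -5.91 there, against 0.38 and -0.17 in particle-free air. Without adjustment, 8.06% of genes on the high side and 7.56% on the low side had p under 0.05. Limma calls in the lists below are on gene averages.

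Inhibitors of cysteine proteases lay near 0 as a list. Of 21 listed, 6 were measured, with a median of 0.05, 3 above and 3 below 0. Limma called 0, with 1 higher at an unadjusted p under 0.05. Cstb, the cytosolic inhibitor cystatin B, was the highest, with 0.82 and 0.73 in UCP air, against 0.62 and 0.71 in particle-free air. It was the 1 inhibitor at least 1.5-fold higher on all 4 arrays (average 0.72 ± 0.08, SD, n = 4, limma adjusted p = 0.143 on gene averages). Cst3, the secreted inhibitor cystatin C, averaged -0.14 ± 0.11, and Cst7, which restrains cathepsins inside immune cells, averaged -0.0025 ± 0.27 (SD, n = 4 each).

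Genes that sort or activate lysosomal enzymes had a median of 0.02 over all 8 listed, 4 above and 4 below 0. Limma called 0, with 0 at an unadjusted p under 0.05. Lgmn, the asparaginyl endopeptidase that processes cathepsin precursors, averaged 0.23 ± 0.38, and M6pr, a receptor that carries them to lysosomes, averaged -0.34 ± 0.18. Gnptab, which makes the mannose 6-phosphate tag, had -2.78 on array 2 of UCP air and 0.02 to 0.43 elsewhere.

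Other lysosomal proteins lay mostly above 0. Of 31 listed, 22 were measured, with a median of 0.37, 16 above and 6 below 0. At least 1.5-fold higher on all 4 arrays were 5 of the 22. Limma called 0, with 10 above 0 and 0 below 0 where p before adjustment was under 0.05. Psap, the precursor of the saposins, averaged 1.44 ± 0.19, the membrane protein Cd63 1.27 ± 0.26 and progranulin (Grn) 1.11 ± 0.26. The lipase Pla2g15 and Hexa, a subunit of hexosaminidase, were the others, at 0.998 ± 0.20 and 1.09 ± 0.17. The lowest was Gla, alpha-galactosidase, at -0.89 ± 1.37 (SD, n = 4 each).

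Class II antigen processing, where cathepsin S acts, was measured through 6 of 11 listed genes. All 6 lay above 0, with a median of 0.62. Limma called 0, with 3 higher at an unadjusted p under 0.05. Cd74, the invariant chain that cathepsin S cleaves, had 0.58 and 0.88 in UCP air, against 1.32 and 0.83 in particle-free air. The values of Cd74 average 3 probes. All 4 were below those of Ctss on the same array, but Ctss was chosen for high ratios, so nothing follows from that order. The class II chain H2-Ab1 averaged 0.86 ± 0.42, and H2-Eb1 averaged 0.73 ± 1.02, with -0.69 on array 2 of particle-free air (SD, n = 4 each).

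The osteoclast programme, which includes partners of cathepsin K in bone, was measured through 12 of 24 genes. The median was 0.28, with 9 above and 3 below 0, and 0 were at least 1.5-fold changed on all 4 arrays. Limma called 0, with 3 higher at an unadjusted p under 0.05. Acp5, the tartrate-resistant acid phosphatase made with cathepsin K in osteoclasts, had -1.87 and -0.79 in UCP air, against 0.65 and 0.49 in particle-free air. The adaptor Tyrobp had 1.5 on both arrays of UCP air, against 0.49 and 0.34 in particle-free air. In the difference between airs limma called 0 of the 12, with 3 at an unadjusted p under 0.05. Of all 9153 named genes, 361 were under it. Tcirg1, a subunit of the proton pump that acidifies the resorption space, averaged 0.75 ± 0.38, and Nfatc1, the transcription factor that drives Ctsk in osteoclasts, averaged -0.15 ± 0.16 (SD, n = 4 each).

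Matrix proteins that these proteases can cut had a median of 0.20 over 10 of 13 genes, 7 above and 3 below 0. Col1a2, a chain of type I collagen, averaged 0.71 ± 0.14, and the adhesion protein fibronectin (Fn1) 0.64 ± 0.09. Dcn, the collagen-binding decorin, was the 1 gene of this list at least 1.5-fold lower on all 4 arrays, and averaged -1.07 ± 0.42. Other matrix proteases and their inhibitors had a median of 0.14 over 13 of 18 genes, 9 above and 4 below 0. Timp1, an inhibitor of metalloproteases, averaged 0.83 ± 0.35, the collagenase Mmp13 0.61 ± 0.31 and the inhibitor Timp3 -0.45 ± 0.17 (SD, n = 4 each). In both lists limma called 0 genes. Without adjustment, 3 matrix proteins had p under 0.05 on the high side and 1 on the low side, and of the proteases and inhibitors 2 were on the high side and 1 on the low side.

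**Figure D4:**
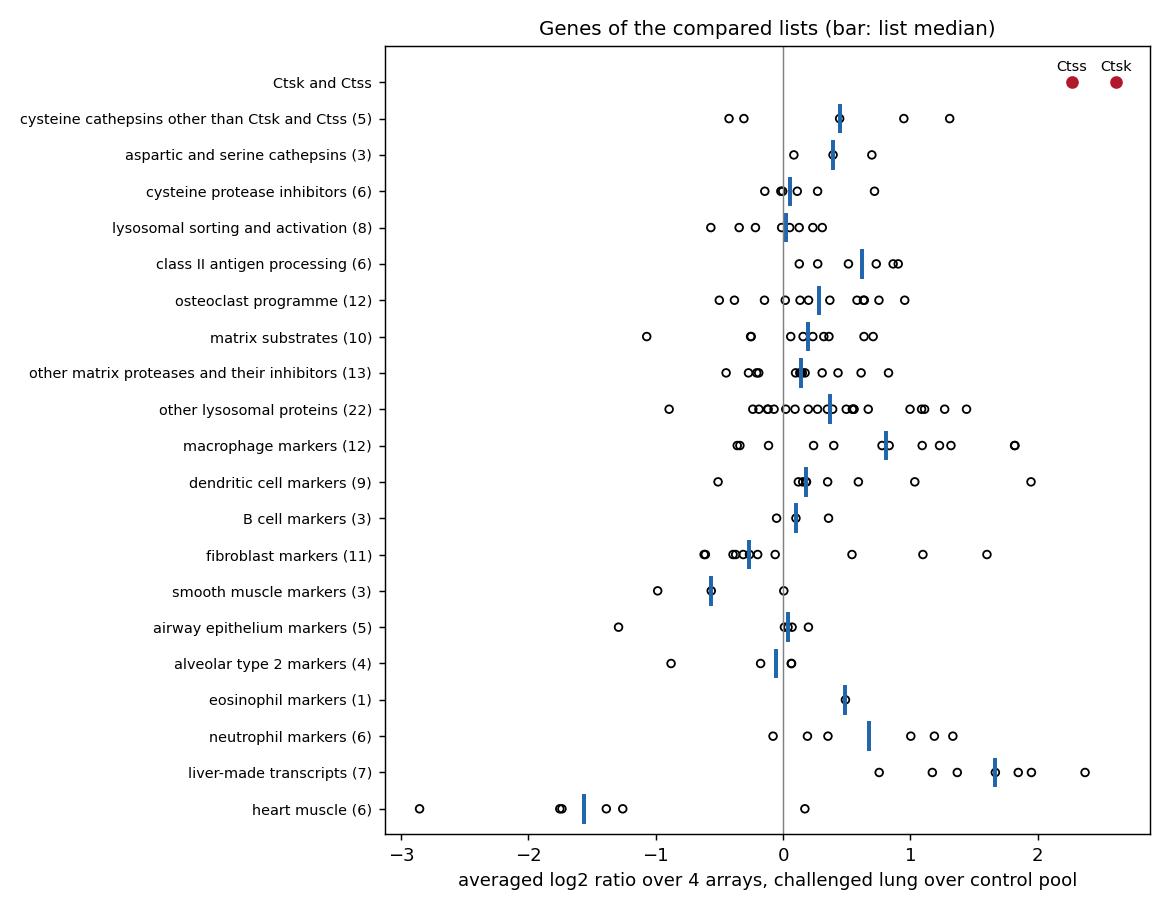
Averaged log2 ratio over 4 arrays (horizontal axis) of each measured gene in the compared lists (vertical axis, number measured in brackets), with a blue bar at the list median. Ctsk at 2.61 and Ctss at 2.27, in red at the top and chosen for high ratios, lie to the right of all list medians. The highest median is 1.67 for liver-made transcripts, whose median was 0.48 in UCP air and 3.21 in particle-free air. Alb of that list averages 2.37, above Ctss.

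Markers of cells that can make the 2 proteases were read on the same arrays. Macrophage markers had a median of 0.81 over 12 of 19 genes, with 9 above and 3 below 0 and 6 of the 12 at least 1.5-fold higher on all 4 arrays. The median was 0.73 and 0.68 on the arrays of UCP air, against 0.86 and 0.80 on those of particle-free air. Mrc1 averaged 1.82 ± 0.22, Lgals3 1.82 ± 0.28 and the lysosomal glycoprotein Gpnmb 1.32 ± 0.17, while Marco, a scavenger receptor of alveolar macrophages, averaged -0.36 ± 0.36 and the lysozyme Lyz2 -0.34 ± 0.33 (SD, n = 4 each). The macrophage markers thus lay on both sides of 0. Limma called 0 of them, with 8 above 0 and 0 below 0 where p before adjustment was under 0.05.

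Dendritic cell markers had a median of 0.18 over 9 of 12 genes. The chemokines Ccl17 and Ccl22 were at 1.95 ± 0.85 and 1.03 ± 0.27, with 7 genes below those, down to Clec9a at -0.51 ± 0.57. Fibroblast markers had a median of -0.26 over 11 of 12 genes, 3 above and 8 below 0. The highest were Col3a1 at 1.60 ± 0.47 and Mfap4 at 1.10 ± 0.23, and the lowest was Fbln2 at -0.62 ± 0.39 (SD, n = 4 each). Neutrophil markers had a median of 0.68 over 6 of 7 genes, and B cell markers, of which 3 of 11 were measured, of 0.10. Medians were 0.04 for airway epithelium (5 of 8 genes), -0.06 for alveolar type 2 cells (4 of 7) and -0.56 for smooth muscle (3 of 5). The 1 of 8 measured eosinophil markers, Prg2, averaged 0.49 ± 0.44. At least 1.5-fold higher on all 4 arrays were 2 neutrophil, 2 dendritic cell and 2 fibroblast genes, where 1.16% of all named genes were. Lower as far were 1 gene each of smooth muscle and airway epithelium, against 1.02% of all named genes. Limma on gene averages called 0 genes in these marker lists. At an unadjusted p under 0.05 they held 3 higher and 2 lower fibroblast genes, 3 higher neutrophil genes, 2 higher dendritic cell genes, 2 lower smooth muscle genes and 1 lower gene each of airway epithelium and alveolar type 2 cells. The part of cell numbers in the ratios of Ctsk and Ctss was not tested.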

How the data were processed

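Per the labels' protocols, total RNA came from individual lungs, and 20 µg was reverse transcribed, labelled indirectly with Cy3 or Cy5 and mixed with the control pool. The deposited values are log2 ratios. The scanner, the background correction and how values were normalized are not stated in the labels. On the Cy5 arrays 25 and 20 probes share the largest value and on the Cy3 arrays 44 and 58 share the smallest, a capped ratio whose sign shows that the authors' swapped arrays had already been turned. All 4 columns were used as deposited, and no filter on dim probes could be applied.

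Of 20205 probes, 13852 had 1 gene symbol in the platform annotation, 0 several and 6353 none. For 13849 probes the RefSeq symbol was found through the Entrez identifier and used, whether or not it differed from that of the platform. Using limma 3.58.1 under R 4.3.3, a linear model was fitted across all genes to 18160 probes with a value on all 4 arrays, with 1 coefficient per air, 2 residual and 2.32 prior degrees of freedom, two-sided, with Benjamini-Hochberg adjustment across every tested probe and a threshold of 0.05. The other 2045 probes, Ctsh among them, were left out. Gene lists used averages of a gene's probes. Genes named from a list of at least 4 measured genes are among its 3 highest and 3 lowest averages. Outside that rule are Hexa, Pla2g15, Trem2 and Calcr, named after their values were seen. Members, lists and tests were chosen with earlier results of these data known. On simulated data with 18160 probes the fit recovered 90% of probes changed by 2 in the averaged effect. At a change of 1 it recovered 12% of them. In the difference between airs it recovered 2% at a change of 2, and 78% at a change of 4. Among unchanged probes it made 13 false calls in the averaged effect and 5 in the difference. The simulated errors were independent and normal, at the spread that the fit itself had estimated. Real arrays need not vary that way, so these shares do not say what the fit would find in them.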

Additional observations from a re-analysis of the deposited data

Results flagged for a closer look

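Among the 169 measured cathepsins, listed genes, neighbours and nearest genes, 5 (2.96%) lay above 0 on both arrays of one air and below 0 on both arrays of the other, as did 7.7% of all 9153 named genes. Trem2, a receptor of macrophages and osteoclasts, differed by -2.54 (-0.64 in UCP air and 1.90 in particle-free air). Acp5 differed by -1.90 (-1.33 in UCP air and 0.57 in particle-free air), and Cdh1, the epithelial cadherin, by -0.88 (-0.37 in UCP air and 0.51 in particle-free air). Calcr, the calcitonin receptor, differed by 0.81 (0.42 in UCP air and -0.39 in particle-free air), and Abca3, a lipid transporter of alveolar type 2 cells, by 0.74 (0.44 in UCP air and -0.30 in particle-free air). None passed limma's test of the difference on gene averages (adjusted p = 0.979 for each).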

How the results depend on the processing

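Under 10 alternatives the difference between airs kept its sign for both genes and passed the threshold in none. It ran from -0.99 to -0.11 for Ctsk and from 0.07 to 0.74 for Ctss. The averaged log2 ratio ran from 2.39 to 2.83 for Ctsk and from 2.12 to 2.42 for Ctss. The other cathepsins had 0 calls in every alternative, with a smallest adjusted p of 0.0857 for the averaged effect. Ctsa, at 0.09, ran from -0.012 to 0.18 when 1 array was left out, below 0 without array 1 of particle-free air. Over all probes, limma called 1 in the averaged effect, 2 with arrays centred and scaled, 5 without capped values and 9 on gene averages. With the replicate block it called 0, with a smallest adjusted p of 0.221 and 0 of 11 other cathepsin probes. The block left the differences at -0.55 for Ctsk and 0.37 for Ctss and changed no call on a cathepsin. The replicate number is also the dye orientation, and deviations of arrays sharing a number correlated at 0.05. Leaving out 1 array gave 0 to 34 calls in the averaged effect and 0 to 32 in the difference, in both cases fewest without array 2 and most without array 1 of UCP air; the lone array of an air is then assumed to vary like the other air. The number of arrays limits precision, and signal over background was not analysed here.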
